A study of Homo sapiens with 6 samples.

Results

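The genes described here encode the extracellular matrix and the machinery by which a cell builds, grips and cuts it: 45 genes for adhesive glycoproteins, fibrillin and latent TGF-beta binding proteins, laminins, collagens, other basement membrane proteins, integrins, and proteases with their receptor and inhibitors. They were chosen by name, with earlier results of these data known. The brightest probe set of each was followed on 6 microarrays of Du145 cells, a human prostate carcinoma line. Values were available for 43 of the 45 among 18417 genes tested, and LAMA3 and COL17A1 were not analysed here. The study compared control cells with TSC2 knockdown cells (shTSC2) and with cells labelled as adapted from the knockdown (shTSC2-adapted), with 2 arrays per group. TSC2 is a tumour suppressor whose product restrains the growth kinase mTORC1.

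All 3 groups grew in DMEM rich in glucose (10% FBS, 5% CO2, 37 °C), and hypoxia at 1% O2 lasted 24 h before RNA was taken. No normoxic group is among them. The labels give neither the nature of the adaptation, nor the way the knockdown was delivered, nor what the control cells received, so effects of delivery and of lower TSC2 cannot be told apart. Nothing says that the arrays of a group came from separate cultures, so p-values rest only on how far these arrays differ from each other, and that spread may be technical.

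The basement membrane is a thin sheet in which a laminin network and a type IV collagen network are held together by nidogen and by the heparan sulphate proteoglycans perlecan and agrin. Epithelial cells bind it through integrins, each a pair of an alpha and a beta chain, and loosen it with plasmin, which urokinase generates, and with matrix metalloproteinases, which TIMP proteins inhibit. Fibronectin and thrombospondin are secreted glycoproteins that integrins also bind, and latent TGF-beta binding proteins store that growth factor in the matrix.

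TSC2 itself had log2 intensities of 7.52 and 7.59 in control, 6.67 and 6.55 in shTSC2, and 6.54 and 6.48 in shTSC2-adapted, so both knockdown groups lay below control. About 51.9% of the control level was left in shTSC2 (limma adjusted p = 0.00102) and 48.5% in shTSC2-adapted (0.0241, a call that ended when any 1 control or shTSC2-adapted array was left out, at adjusted p between 0.0973 and 0.386). The keratins KRT8 and KRT18, which mark simple epithelia, stood between 11.22 and 11.50 on the 6 arrays. Of 9 measured epithelial markers, KRT7 rose and KRT19 (-1.38) and EPCAM (-1.28) fell in shTSC2, and KRT19, EPCAM, CDH1 and CLDN7 were higher in shTSC2-adapted than in shTSC2. The latter 4 are 44.4% of the 9, against 9.25% of all genes called higher there, and no alternatives were examined for them. The first 3 calls ended without control 1 (adjusted p = 0.0888, 0.0655 and 0.181), and those of KRT7 and EPCAM also without control 2 (0.189 and 0.0854) or 1 shTSC2 array (0.0649 without array 2 and 0.0593 without array 1, where EPCAM stood at -0.80). The summed level of that list was 12.68 to 12.76 in control, 12.87 to 12.93 in shTSC2 and 12.95 in shTSC2-adapted on the log2 scale. None of 11 stromal, 8 endothelial or 8 leukocyte markers passed in any comparison. Summed levels ranged over the groups from 8.83 to 8.94, from 7.76 to 7.87 and from 8.01 to 8.20, and the part of any of these lists in the results below was not tested. On the shTSC2-adapted arrays, 33 of the 43 matrix genes were higher on array 2 than on array 1, against 52.9% of all genes, a difference between arrays of 1 group that stands beside every value of that group below.

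In shTSC2, 10 of the 43 genes fell and none rose. They were fibronectin (FN1), EFEMP1, LTBP1, the collagen chains COL4A1 and COL4A2, nidogen (NID1), the integrin chains ITGA3, ITGB4 and ITGB5, and urokinase (PLAU). Among all genes tested, 13.9% were called lower and 6.87% higher by limma (adjusted p under 0.05, two-sided, Benjamini-Hochberg over 18417 genes), and 23.3% of the matrix genes were called lower. In either direction 20.8% of all genes were called. With dim genes (mean below the median gene) left out, 7 of 29 matrix genes were called lower, 24.1% against 24.6% of all genes. That setting removed FN1, NID1 and ITGB4 from the test. At an unadjusted p under 0.05, 14 of the 43 were lower (19.6% of all genes) and 1 higher (13.7%). Both shTSC2 arrays lay below both control arrays for 19 (29.6% of all genes) and above them for 7 (32.4%). The median difference was -0.07 for the 43 genes and 0.03 for all genes, and the 10 genes fell by between 0.40 and 1.36. In bulk RNA, fewer cells making a transcript and less transcript per cell cannot be told apart.

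**Figure D1:**
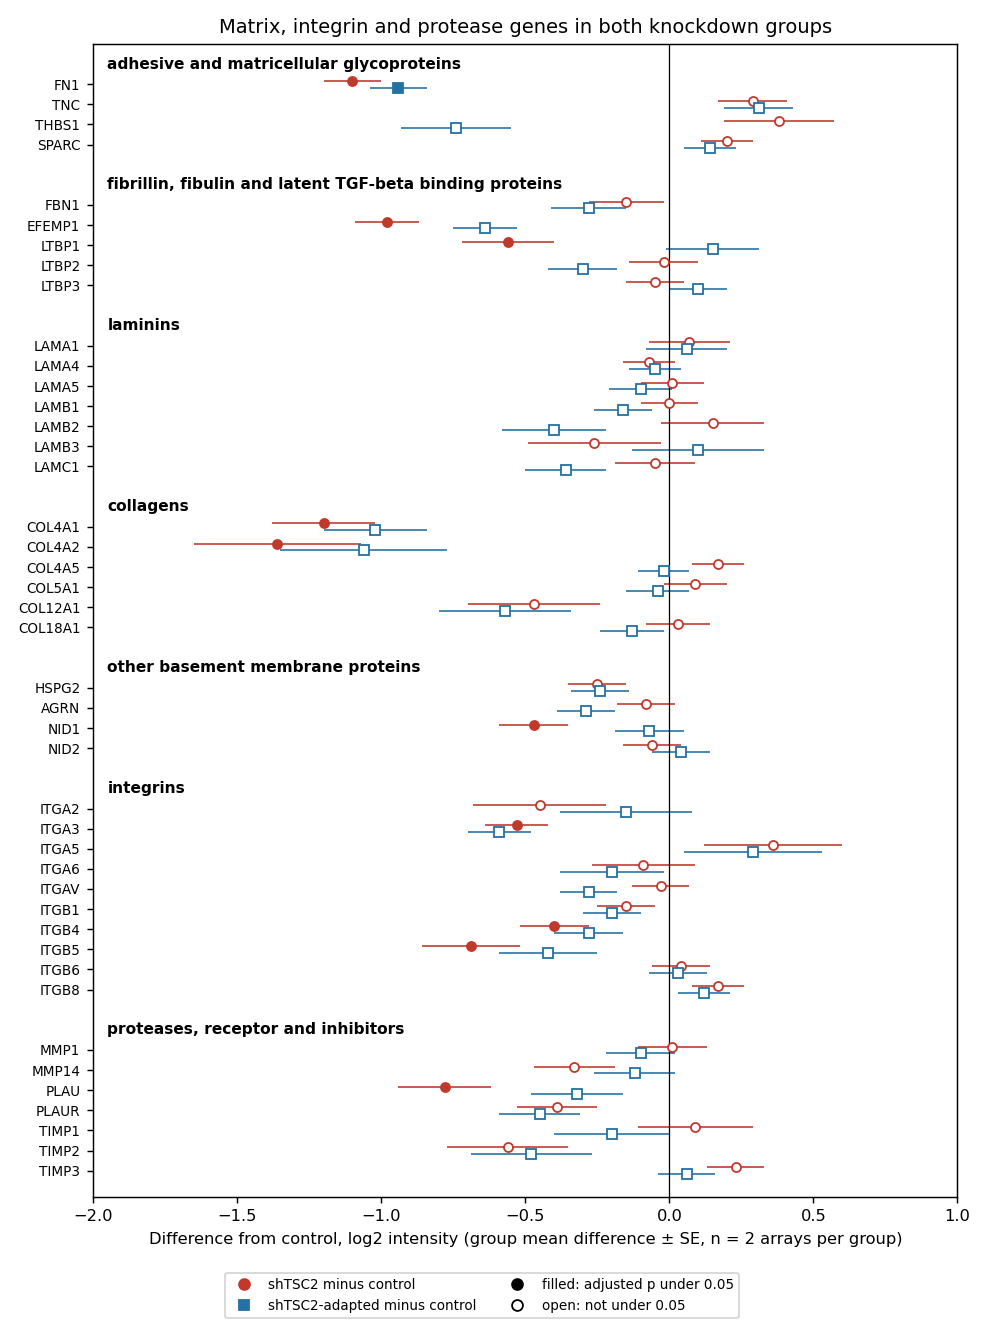
Difference from control in log2 intensity (x axis) for each of the 43 genes, grouped by role, with circles for shTSC2, squares for shTSC2-adapted and bars for the standard error (n = 2 arrays per group). Filled symbols passed (adjusted p under 0.05), and the filled circles lie between -1.36 and -0.40, whereas FN1 is the 1 filled square.

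COL4A1 and COL4A2 encode the chains of the most widespread type IV collagen, which assemble in the same trimer. COL4A1 read 7.64 and 7.39 in control, 6.31 and 6.32 in shTSC2 and 6.23 and 6.76 in shTSC2-adapted. COL4A2 read 8.44 and 7.95 in control, 6.61 and 7.06 in shTSC2 and 6.72 and 7.55 in shTSC2-adapted. Both control arrays lay above all 4 knockdown arrays for each gene, and within the shTSC2-adapted group both genes were higher on array 2. COL4A1 fell by 1.20 in shTSC2 (SE 0.18, limma adjusted p = 0.0036), which left 43.5% of the control level (95% interval 32.7% to 57.9%). COL4A2 fell by 1.36 (SE 0.29, adjusted p = 0.0157), which left 39.0% (24.3% to 62.4%). The differences of shTSC2-adapted from control, -1.02 and -1.06, did not pass (adjusted p = 0.0742 and 0.184; for COL4A1 0.0381 with dim genes left out and 0.024 with array weights), and neither did those between the knockdown groups, 0.18 (95% interval -0.23 to 0.59) and 0.30 (-0.38 to 0.98). Leaving out control 1 (adjusted p = 0.125), control 2 (0.0546) or shTSC2 1 (0.0601) ended the call of COL4A2 but not that of COL4A1.

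These genes lie head to head and are transcribed away from each other, their annotated starts 127 bases apart in RefSeq (GRCh38.p14). The bases between both starts are shown because the pair shares them as its promoter. They occupy chr13:110307158-110307283, outside both transcripts, and are read 5′ to 3′ on the plus strand, which is the strand of COL4A2, with COL4A1 running off to the left on the minus strand. Capitals mark a CCAAT box (CCAAT) at bases 22 to 26 and a GC box (GGGCGG) at bases 62 to 67, searched on both strands.
COL4A1-COL4A2: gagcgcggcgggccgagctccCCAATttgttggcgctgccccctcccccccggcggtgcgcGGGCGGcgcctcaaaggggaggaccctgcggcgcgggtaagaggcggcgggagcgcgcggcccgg

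The other type IV collagen genes also lie in head-to-head pairs, with nearest starts 419 bases apart for COL4A3 and COL4A4 and 380 for COL4A5 and COL4A6. None of them passed in any comparison of the main test. COL4A5, the measured member of this set, read 4.78 and 4.80 in control, 4.93 and 5.00 in shTSC2 and 4.81 and 4.73 in shTSC2-adapted, and its difference of 0.17 in shTSC2 had an adjusted p of 0.236 (0.35 and 0.036 with the trend of change on gene span removed). COL4A3, COL4A4 and COL4A6 differed by 0.03, 0.00 and 0.12 in shTSC2. These 4 genes were dim on the arrays, at 4.73 to 5.45, around the lower quartile of 5.01 of all named probe sets.

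Of the remaining collagens, COL5A1, a minor fibrillar chain, COL12A1, which coats fibrils, and COL18A1, a basement membrane collagen whose end fragment is endostatin, did not pass in any comparison with all 6 arrays. COL12A1 read 8.44 and 8.28 in control, 7.58 and 8.21 in shTSC2 and 7.53 and 8.05 in shTSC2-adapted. All its knockdown arrays lay below both control arrays, but the arrays within each knockdown group differed by more than 0.5, and the difference of -0.47 in shTSC2 (SE 0.23) had an adjusted p of 0.213. Without shTSC2 2, it was -0.78 and passed (0.0432). COL5A1 and COL18A1 differed by 0.09 and 0.03. None of 10 fibrillar collagen genes and none of 10 other network collagen genes passed in shTSC2, where their medians were 0.11 and 0.10.

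No laminin chain was called in any comparison with all 6 arrays. The 7 measured chains, which build the polymer on which a basement membrane starts, had differences of -0.26 to 0.15 in shTSC2 around a median of 0.00. LAMA1 read 7.96 and 8.01 in control, 7.87 and 8.24 in shTSC2 and 7.94 and 8.14 in shTSC2-adapted. LAMB1 read 8.20 and 8.33, 8.26 and 8.27, and 8.02 and 8.19 in the same order. LAMC1, the gamma chain common to most laminins, read 9.96 and 9.97, 9.76 and 10.07, and 9.45 and 9.76. For LAMA1 and LAMB1 the shTSC2 arrays overlapped the control arrays, as they did for LAMC1. The 95% interval of the difference in shTSC2 was -0.26 to 0.40 for LAMA1 and -0.39 to 0.29 for LAMC1, so falls of the size seen in type IV collagen lie outside both.

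LAMB2, a beta chain of mature basement membranes, read 8.12 and 8.35 in control, 8.66 and 8.11 in shTSC2 and 7.90 and 7.78 in shTSC2-adapted. It had the largest difference of the laminins between the knockdown groups, -0.55 (SE 0.18, adjusted p = 0.099). When shTSC2 2 was dropped, the difference was -0.82 and passed (0.0123). LAMB3, a chain of the epithelial laminin found beneath hemidesmosomes, read 8.59 and 8.32, 8.51 and 7.88, and 8.77 and 8.33, with overlap among all groups. LAMA5 differed from control by 0.01 in shTSC2 and -0.10 in shTSC2-adapted. LAMA4 stood near the floor (4.01 to 4.14). Of 3 measured laminin chains that were not among the 45 genes, LAMA2 fell by 0.48 (SE 0.11, adjusted p = 0.0178, but 0.0572 and 0.164 when control 1 or control 2 was dropped, and 0.0516 at -0.36 with the span trend removed), and LAMB4 and LAMC3 stood at -0.12 and 0.05.

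NID1, one of the nidogens that bridge the laminin and collagen networks, read 5.22 and 5.39 in control, 4.96 and 4.70 in shTSC2 and 5.29 and 5.18 in shTSC2-adapted. The shTSC2 arrays were the lowest of the 6, and the shTSC2-adapted arrays overlapped control. It fell by 0.47 in shTSC2 (SE 0.12, adjusted p = 0.0325), and its difference from shTSC2 in the adapted cells was 0.41 (SE 0.12, adjusted p = 0.0769). The fall was no longer called without any 1 array other than shTSC2 1 (adjusted p between 0.0515 and 0.232), and without shTSC2 1 the higher level in shTSC2-adapted passed (0.0373). NID2 stood at -0.06 in shTSC2. HSPG2, which encodes perlecan, read 6.87 and 6.96, 6.61 and 6.72, and 6.65 and 6.70, below control on all 4 knockdown arrays, with differences of -0.25 and -0.24 (adjusted p = 0.116 and 0.364). AGRN stood at -0.08 and -0.29.

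FN1, the gene of the glycoprotein on which many integrins converge, was the 1 member called against control in both knockdown groups. It read 7.01 and 7.08 in control, 6.01 and 5.87 in shTSC2 and 6.07 and 6.15 in shTSC2-adapted. Both control arrays stood above the other 4, and the knockdown groups did not overlap each other either. It fell by 1.10 in shTSC2 (SE 0.10, adjusted p = 0.000726), to 46.5% of control (39.6% to 54.6%), and by 0.94 in shTSC2-adapted (SE 0.10, adjusted p = 0.0265), to 52.3% (44.5% to 61.5%). Between the knockdown groups the difference was 0.17 (95% interval -0.06 to 0.40, adjusted p = 0.324). Leaving out either control array (adjusted p = 0.386 and 0.377) or either shTSC2-adapted array (0.178 and 0.0973) ended the call in the adapted cells, while the call in shTSC2 passed under all 15 alternatives that tested the gene.

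The bases before its start are shown because FN1 fell in both groups. RefSeq (GRCh38.p14) places them at chr2:215436069-215436318 on the minus strand, just upstream of the first exon. Capitals mark, from left to right, a cyclic AMP response element (TGACGTCA), a CCAAT box (CCAAT) and the core of a TATA box (TATAA). GC boxes are also present and are left in lower case.
FN1: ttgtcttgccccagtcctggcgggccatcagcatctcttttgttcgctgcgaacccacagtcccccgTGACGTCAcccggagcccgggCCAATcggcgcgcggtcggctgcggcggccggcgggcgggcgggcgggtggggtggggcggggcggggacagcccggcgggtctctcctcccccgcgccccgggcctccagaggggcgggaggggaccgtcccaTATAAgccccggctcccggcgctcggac

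The same search covered the 250 bases before every start in the RefSeq promoter table, which had entries for 36 of the 43 genes and 7 of the 10 that fell (a gene with several starts counted if any of them held the motif). CCAAT was found for 6 of those 7 genes (COL4A1, COL4A2, FN1, LTBP1, NID1 and PLAU), for 7 of the other 29 and in 32.0% of all 35116 promoters. COL4A1 and COL4A2 share theirs. TGACGTCA was found for FN1 and LTBP1, for 0 of the 29 and in 1.65% of all promoters. GGGCGG was found for 6 of 7 and 22 of 29 (42.6% of all), TATAA for 1 and 6 (18.9%), ACGTG, the core of the hypoxia response element, for 1 and 5 (18.5%), and the AP-1 motif TGANTCA for 0 and 2 (6.57%). Motifs were counted on both strands, TGACGTCA contains neither TGANTCA nor ACGTG, and a match describes the reference sequence only.

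THBS1, which encodes thrombospondin, a matricellular glycoprotein that can activate latent TGF-beta, was called between the knockdown groups. It read 10.68 and 10.61 in control, 10.91 and 11.14 in shTSC2 and 9.60 and 10.20 in shTSC2-adapted, so the 3 groups did not overlap and control lay between the others. The difference between shTSC2-adapted and shTSC2 was -1.12 (SE 0.19, adjusted p = 0.011), which is 45.9% of the shTSC2 level (33.7% to 62.4%). Differences from control were 0.38 in shTSC2 (adjusted p = 0.21) and -0.74 in shTSC2-adapted (adjusted p = 0.157). Tenascin (TNC), a glycoprotein of remodelling matrix, read 6.59 and 6.54, 6.98 and 6.74, and 6.79 and 6.96, above control on all 4 knockdown arrays, at 0.29 and 0.31 (adjusted p = 0.125 and 0.333). The first passed with quantile normalization (0.38, adjusted p = 0.0441) and with the span trend removed (0.43, 0.0423). SPARC, a collagen-binding protein, was dim (4.36 to 4.60) and stood at 0.20 and 0.14.

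**Figure D2:**
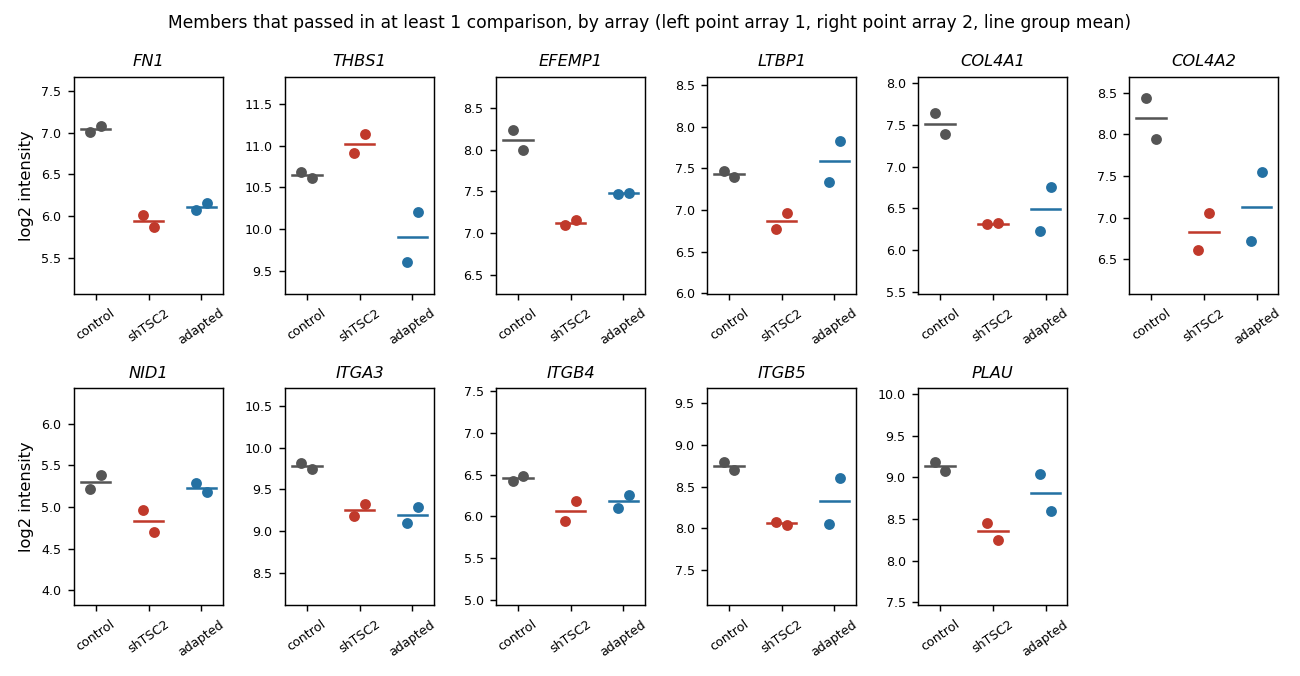
Log2 intensity (y axis) on each array for the 11 genes that passed in at least 1 comparison, with control, shTSC2 and shTSC2-adapted arrays as points (array 1 left, array 2 right) and group means as lines, each panel spanning the same range of log2 units. FN1, EFEMP1, COL4A1, COL4A2, ITGA3, ITGB4, ITGB5 and PLAU are below control on all 4 knockdown arrays. LTBP1 and NID1 overlap control in the shTSC2-adapted group, and THBS1 is lowest there.

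EFEMP1, a fibulin of elastic and basement membrane matrices, read 8.23 and 7.99 in control, 7.10 and 7.15 in shTSC2 and 7.47 and 7.48 in shTSC2-adapted. The 3 groups were fully separated, with the shTSC2-adapted arrays between the others. It fell by 0.98 in shTSC2 (SE 0.11, adjusted p = 0.00132), to 50.5% of control (42.3% to 60.3%). In shTSC2-adapted it stood at -0.64 (SE 0.11, adjusted p = 0.073, but 0.0482 with dim genes left out and 0.0303 with array weights), and at 0.35 relative to shTSC2 (adjusted p = 0.0826).

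LTBP1, which anchors latent TGF-beta in the matrix, read 7.47 and 7.39 in control, 6.77 and 6.96 in shTSC2 and 7.34 and 7.83 in shTSC2-adapted. The shTSC2 arrays were the lowest, and the shTSC2-adapted arrays spanned the control values. It fell by 0.56 in shTSC2 (SE 0.16, adjusted p = 0.0484) and stood 0.72 above shTSC2 in the adapted cells (SE 0.16, limma adjusted p = 0.0303). The fall held under 8 of 16 alternatives and ended without either control or either shTSC2 array (-0.66 to -0.47). Its call also ended with quantile normalization (-0.46, adjusted p = 0.104), median centring (0.066), every probe set tested (0.0516) and the span trend removed (-0.42, 0.115). The call of the higher level in shTSC2-adapted ended without either control array (0.72), shTSC2 1 (0.62) or shTSC2-adapted 2 (0.47). That call also ended with quantile normalization (0.63, adjusted p = 0.0566), with the span trend removed (0.61, 0.0541) and with only the 4 arrays compared (0.0777). LTBP2 and LTBP3 stood at -0.02 and -0.05 in shTSC2, and the fibrillin gene FBN1, whose product forms the microfibrils that these proteins bind, at -0.15.

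Among the integrins, 1 of 5 alpha chains and 2 of 5 beta chains fell in shTSC2, 30% of the 10 against 13.9% of all genes. None passed in the other comparisons with all 6 arrays. ITGA3, whose product pairs with ITGB1 as a laminin receptor, read 9.82 and 9.75 in control, 9.18 and 9.33 in shTSC2 and 9.10 and 9.29 in shTSC2-adapted, lower on all 4 knockdown arrays. It fell by 0.53 in shTSC2 (SE 0.11, limma adjusted p = 0.0141). Dropping control 1 or control 2 ended this call (0.118 and 0.0918). Its difference in the adapted cells was -0.59 (SE 0.11, adjusted p = 0.0834, but 0.0268 with array weights). ITGB5, which pairs with ITGAV and binds vitronectin, read 8.80 and 8.70, 8.08 and 8.04, and 8.05 and 8.61. The second shTSC2-adapted array lay near control and the first at the shTSC2 level. It fell by 0.69 in shTSC2 (SE 0.17, adjusted p = 0.0287), and leaving out either control or either shTSC2 array ended that call (adjusted p between 0.0633 and 0.171).

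ITGB4, which with ITGA6 forms the hemidesmosome receptor for laminin, read 6.43 and 6.49 in control, 5.95 and 6.18 in shTSC2 and 6.10 and 6.26 in shTSC2-adapted. Its fall of 0.40 in shTSC2 (SE 0.12, adjusted p = 0.0495) had the highest adjusted p of the 10 and held under 4 of 15 alternatives. It ended without any 1 array other than shTSC2 2 (adjusted p between 0.0628 and 0.259). ITGA6 read 8.86 and 8.78, 8.49 and 8.97, and 8.45 and 8.79, overlapping control in both knockdown groups (-0.09 and -0.20). ITGB1, the partner of most alpha chains here, read 11.17 and 11.30, 11.11 and 11.05, and 11.01 and 11.07, with a 95% interval of -0.38 to 0.07 in shTSC2. ITGAV stood at -0.03 in shTSC2, and ITGB8 and ITGB6 at 0.17 and 0.04.

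ITGA2, a collagen receptor chain, read 7.12 and 7.26 in control, 6.82 and 6.66 in shTSC2 and 7.44 and 6.63 in shTSC2-adapted. Both shTSC2 arrays lay below control, while the shTSC2-adapted arrays were the highest and the lowest of the 6. The difference of -0.45 in shTSC2 did not pass (adjusted p = 0.23), but it did with only the control and shTSC2 arrays in the fit or without either shTSC2-adapted array (0.0384). Without shTSC2-adapted 2, ITGA2 stood 0.70 above shTSC2 in the adapted cells and passed (0.0405).

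ITGA5, the alpha chain of the main fibronectin receptor, read 8.65 and 8.66 in control, 9.45 and 8.59 in shTSC2 and 8.94 and 8.96 in shTSC2-adapted. One shTSC2 array was the highest of all and the other was the lowest, so the difference of 0.36 (SE 0.24) did not pass (adjusted p = 0.339). Without shTSC2 2 it passed, at 0.80 (0.00341), as did the difference of the adapted cells from shTSC2, at -0.50 (0.0238). Of 15 other integrin chains measured, 3 fell in shTSC2 and none rose (20% lower, against 13.9% of all genes). ITGB3, an ITGAV partner, fell by 1.08 (SE 0.11, adjusted p = 0.000957) and by 1.02 in shTSC2-adapted (SE 0.11, adjusted p = 0.0265), with all 4 knockdown arrays below control. ITGB2, better known from leukocytes, fell by 0.79 in shTSC2 (SE 0.15, adjusted p = 0.00926, but 0.095 when control 2 was dropped) and stood 0.85 above shTSC2 in the adapted cells (SE 0.15, adjusted p = 0.0115). ITGA9 fell by 0.37 in shTSC2 (adjusted p = 0.0297; between 0.0744 and 0.197 without control 1, control 2 or shTSC2 1). Its call also ended with median centring (0.0671) and with the span trend removed, where it stood at -0.22 (0.144). The call of ITGB3 in shTSC2-adapted ended when any of the 4 arrays compared was left out (adjusted p between 0.0939 and 0.386).

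Of the proteases, their receptor and their inhibitors, PLAU fell in shTSC2 and the other 6 genes did not pass in any comparison with all 6 arrays. PLAU, which encodes urokinase, read 9.18 and 9.08 in control, 8.45 and 8.25 in shTSC2 and 9.04 and 8.59 in shTSC2-adapted. Its shTSC2 arrays were the lowest, and the shTSC2-adapted arrays lay between the groups. It fell by 0.78 (SE 0.16, adjusted p = 0.0128), to 58.2% of control (45.1% to 75.2%), and stood at 0.47 relative to shTSC2 in the adapted cells (95% interval 0.10 to 0.83, adjusted p = 0.105). Without control 1 (0.104) or control 2 (0.0813) the fall was not called, and without shTSC2-adapted 2 the difference from shTSC2 passed (0.0434). PLAUR, the receptor that holds urokinase at the cell surface, read 9.50 and 9.24, 9.07 and 8.90, and 8.79 and 9.05, below control on all 4 knockdown arrays, at -0.39 and -0.45 (adjusted p = 0.0925 and 0.228).

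TIMP2, an inhibitor of metalloproteinases, read 10.13 and 10.14 in control, 9.45 and 9.70 in shTSC2 and 9.30 and 10.01 in shTSC2-adapted. All knockdown arrays were below control, and array 2 of the shTSC2-adapted group was close to it. The differences were -0.56 (SE 0.21, adjusted p = 0.113) and -0.48 (adjusted p = 0.421). The first passed with only the control and shTSC2 arrays in the fit or without either shTSC2-adapted array (0.0238). TIMP1 read 10.22 and 10.05, 10.53 and 9.92, and 9.78 and 10.10, overlapping between control and shTSC2. MMP14, a membrane-anchored collagenase, stood at -0.33 in shTSC2 (adjusted p = 0.135), and at -0.52 without shTSC2 1, where it passed (0.0212). MMP1 (4.48 to 4.73) and TIMP3 (4.52 to 4.86) were dim, and the other probe set of TIMP3 stood at 0.07 beside 0.23 on the one used.

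Genes that act beside these 43 were taken from lists named in the same way, with earlier results of these data known. Of 23 focal adhesion and integrin adaptor genes, 7 fell and 2 rose in shTSC2, around a median of -0.21. These are 30.4% and 8.7%, against 13.9% and 6.87% of all genes. The 7 that fell spanned 93.8 kb (FERMT2) to 738 kb (LPP) in the reference. In equal bins of gene span, 20.2% of all genes were called lower at a median of 65.8 kb and 31% at 256 kb. With dim genes left out the share of all genes was 24.6%. The part of span and brightness in this share and those of the lists below was not tested. PARVA, an adaptor that binds integrin-linked kinase, fell by 1.21 (SE 0.21, adjusted p = 0.00755) and FERMT2, a kindlin that activates integrins, by 0.93 (SE 0.11, adjusted p = 0.0018). ZYX and VASP, which govern actin at adhesions, rose by 0.62 and 0.41 (adjusted p = 0.0277 and 0.0321). Without control 1 or control 2, the calls of PARVA (0.0736 and 0.0503), ZYX (0.0763 and 0.205) and VASP (0.176 and 0.175) ended, as did that of ZYX without shTSC2 2 (0.0942) and that of VASP without shTSC2 1 (0.0897). Of 11 other matrix receptors 3 fell and none rose, 27.3% lower against 13.9% of all genes. The hyaluronan receptor CD44 fell by 1.36 in shTSC2 (SE 0.13, adjusted p = 0.000759) and by 1.04 in shTSC2-adapted (adjusted p = 0.0341). The latter call ended without any 1 of the 4 arrays compared (adjusted p between 0.125 and 0.444). CD9, a tetraspanin associated with integrins, fell by 0.65 in shTSC2 (adjusted p = 0.0478), a call that ended without any 1 array other than shTSC2 1 (0.0759 to 0.248). Without shTSC2 2 it stood at -0.35. The call also ended with quantile normalization (-0.52, 0.0816), with every probe set tested (0.0512), with only the 4 arrays compared (0.0759) and with the span trend removed (0.0523).

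In the TGF-beta list, 7 of 16 genes fell in shTSC2 and none rose (median -0.23), 43.8% lower against 13.9% of all genes. TGFB1, a ligand stored by the LTBP proteins, fell by 0.76 (SE 0.17, adjusted p = 0.018), while TGFB2 stood at -0.29 (adjusted p = 0.48), with arrays of 8.09 and 9.01 in shTSC2 against 8.84 on both control arrays. TGFBI, a secreted matrix protein induced by TGF-beta, fell by 0.79 (SE 0.14, adjusted p = 0.00835), and the co-receptor TGFBR3 by 0.79 (SE 0.16, adjusted p = 0.0127). In the adapted cells TGFBI differed from control by -0.95 (adjusted p = 0.0581). Leaving out control 1 ended the calls of TGFB1 (0.13), TGFBI (0.0837) and TGFBR3 (0.0552), leaving out control 2 those of TGFB1 (0.0975) and TGFBR3 (0.117), and leaving out shTSC2 2 that of TGFB1 (0.0612).

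Of 24 genes for collagen modification and cross-linking, 2 fell and 1 rose in shTSC2 (8.33% and 4.17%, against 13.9% and 6.87% of all genes). P3H2, a prolyl hydroxylase known to act on type IV collagen, read 6.97 and 6.69 in control, 5.67 and 5.66 in shTSC2 and 5.62 and 6.11 in shTSC2-adapted, below control on all 4 knockdown arrays. It fell by 1.17 in shTSC2 (SE 0.17, adjusted p = 0.00361), and differed by -0.96 in the adapted cells (adjusted p = 0.0777). LOXL4, a lysyl oxidase, fell by 0.68 (adjusted p = 0.0225), and PLOD2, a lysyl hydroxylase, rose by 0.34 (adjusted p = 0.0467). The call of LOXL4 ended without control 1, control 2 or shTSC2 2, where the gene stood at -0.54, -0.82 and -0.47. That of PLOD2 ended without any 1 of the 4 arrays compared (0.29 to 0.38). It also ended with array weights (adjusted p = 0.0534) and with only those 4 arrays in the fit (0.0614). Among 21 other matrix proteases, 3 fell and 1 rose (14.3% and 4.76%, against 13.9% and 6.87% of all genes). The sheddase ADAM10 fell by 0.80 (SE 0.09, adjusted p = 0.00149) and the membrane-type metalloproteinase MMP24 by 0.65, whereas ADAM15 rose by 0.66 (adjusted p = 0.011 for MMP24 and 0.0138 for ADAM15). Of 10 other inhibitors, 1 fell and 1 rose (10% each, against 13.9% and 6.87% of all genes). RECK, a membrane-anchored metalloproteinase inhibitor, fell by 0.91 (SE 0.15, adjusted p = 0.00506), and TFPI2, described below, rose. Without control 2 the calls of RECK (0.0619), MMP24 (0.0981) and ADAM15 (0.125) ended, as did those of MMP24 (0.0788) and ADAM15 (0.0671) without control 1.

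TFPI2, a secreted serine protease inhibitor that binds matrix, had the largest rise of these lists. It read 8.03 and 8.04 in control, 9.63 and 9.53 in shTSC2 and 8.13 and 8.68 in shTSC2-adapted, a rise of 1.54 in shTSC2 (SE 0.17, adjusted p = 0.00131). In the adapted cells it was 1.18 lower than in shTSC2 (SE 0.17, adjusted p = 0.00654). Like THBS1, it was highest on both shTSC2 arrays.

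**Figure D3:**
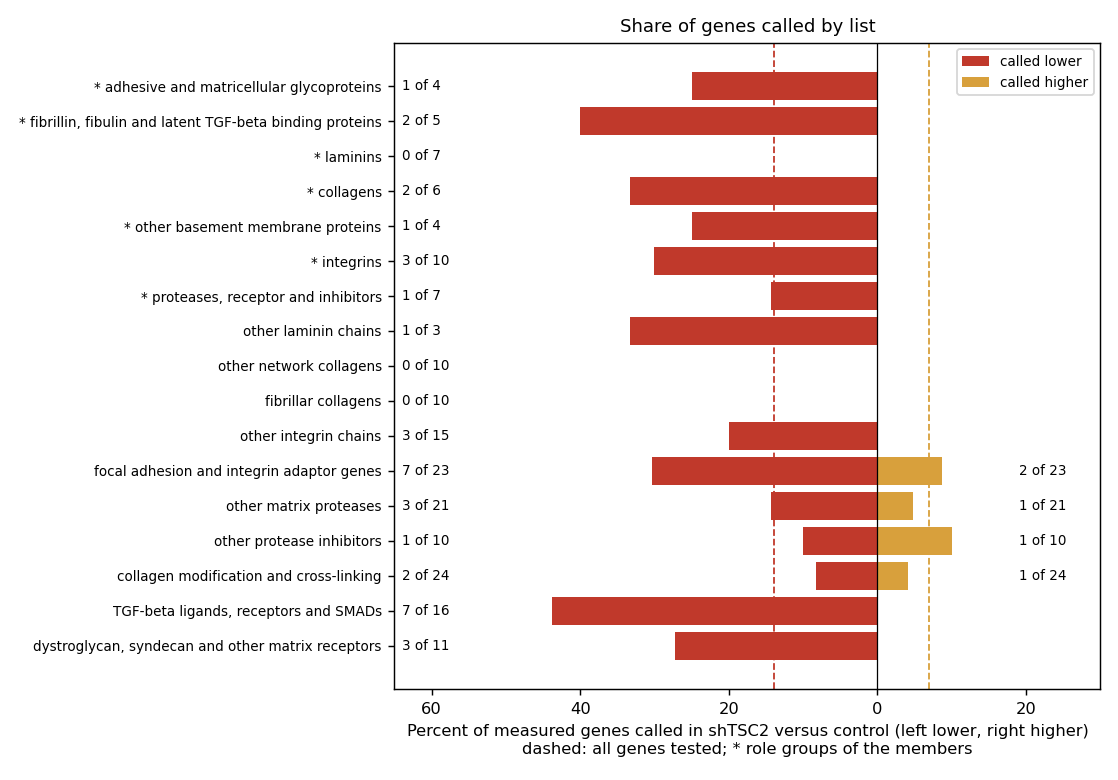
Percent of the measured genes of each list called lower (left) or higher (right) in shTSC2 versus control, with the counts beside the bars and dashed lines at the share of all genes tested, 13.9% lower and 6.87% higher. The laminins among the 43 genes and both further collagen lists have no call, and 7 of 16 genes of the TGF-beta list are called lower.

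In the adapted cells, the comparison with control made few calls in any gene: 0.206% of genes were lower and 0.0543% higher, 0.261% in all, and FN1 was the 1 matrix gene called. At an unadjusted p under 0.05, 15 of the 43 were lower and 1 higher, against 7.25% and 5.33% of all genes. Both shTSC2-adapted arrays lay below both control arrays for 24 of the 43, against 24.1% of all genes, and above them for 5, against 21.8%. The median difference was -0.20 for the matrix genes and -0.01 for all genes. These genes were measured on the same 2 arrays, so their counts are not independent of each other, and the per-array medians relative to the control mean were -0.25 on shTSC2-adapted 1 and -0.12 on shTSC2-adapted 2.

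Between the knockdown groups, LTBP1 was higher and THBS1 lower in shTSC2-adapted, and the other 41 genes did not pass, against 9.25% of all genes called higher and 3.24% called lower (12.5% in either direction). At an unadjusted p under 0.05, 4 of the 43 were higher (16.7% of all genes) and 3 lower (10.3%). Both shTSC2-adapted arrays lay above both shTSC2 arrays for 7 (25% of all genes) and below them for 12 (27.1%). For the 10 genes that fell in shTSC2, chosen on the same shTSC2 arrays, the difference of shTSC2-adapted from shTSC2 ran from -0.06 (ITGA3) to 0.72 (LTBP1). Both comparisons with control use the same control arrays, and both involving shTSC2 the same shTSC2 arrays.

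Gene span moved with the change in shTSC2. The matrix genes had a median span of 79.1 kb in the reference against 24.5 kb for all genes, and the share of all genes called lower was 2.88% in the shortest of 10 equal bins of span and 31% in the longest. The part of span in the results was not tested beyond these values. Among the 4849 genes with a span between the quartiles of the matrix genes (35.2 to 118 kb), 19.8% were called lower. Median span was 82.2 kb for the 10 lower genes and 79.1 kb for the other 33. With the trend of change on span removed, 6 of the 43 were called lower (FN1, EFEMP1, COL4A1, COL4A2, ITGA3 and PLAU, or 14%, against 12.6% of all genes), and TNC and COL4A5 were called higher. With either control array left out, FN1, EFEMP1 and COL4A1 were called lower and the other 7 were not, with 6.24% and 5.14% of all genes then called lower.

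**Figure D4:**
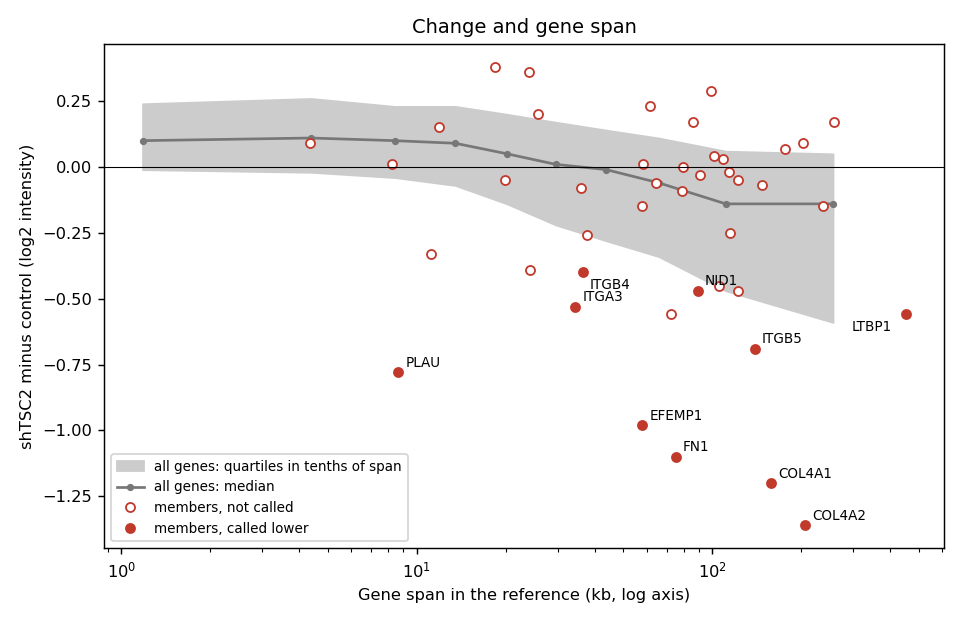
Difference between shTSC2 and control (y axis, log2 intensity) against gene span in the reference (x axis, kb, log scale), with filled circles for the 10 matrix genes called lower, open circles for the other 33, and the median (line) and quartiles (grey) of all genes in 10 bins of span. PLAU, at 8.66 kb, lies below the grey band, as do the other filled circles except LTBP1. LTBP1, the longest at 453 kb, lies beyond its right end. Open circles such as TIMP2, PLAUR and MMP14 also lie below the band.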

How the data were processed

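Per the submitters' processing notes the authors used RMA, and the deposited values are linear intensity, 1 per probe set and array. The RMA version and probe definition were not stated. RMA equalises arrays, which can hide a shift of the whole transcriptome. Median intensities were 58.1 to 63.1 over 33297 probe sets. Arrays have no read depth, and their number limits the precision.

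Of the probe sets, 19460 had 1 gene symbol in the platform annotation, 1754 had several and 12083 are unnamed here. The probe set with the highest mean was kept per gene and log2 values were tested with limma 3.58.1 (R 4.3.3; lmFit and eBayes with default settings) on all 6 arrays, which left 3 residual degrees of freedom. The procedure was tested on simulated data, and intervals are 95%. Members, lists and tests were chosen with earlier results of these data known. Every array is given for each member that passed in any comparison. Of each further list, up to 2 rises and 2 falls that passed in shTSC2 are named, with TGFB1, TGFB2 and TGFBI in any case, and other genes were named after their values were seen. Promoters and spans are from RefSeq tables (GRCh38.p14). There were 16 alternative settings per comparison. Leaving out 1 array of the group not compared gives the same fit as only the 4 arrays compared, so these are not separate results.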

Additional observations from a re-analysis of the deposited data

How the results depend on the processing

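FN1, EFEMP1 and COL4A1 in shTSC2 versus control were called under every alternative that tested them. Of 43 genes, 10 were called lower there and 6 with the gene length trend removed; leaving out single arrays gave 3 to 10, with 3 without either control array. Calls higher there numbered 0, and 1 (TNC) with quantile normalization, 2 (TNC and COL4A5) with the length trend removed, and 0 to 1 with single arrays left out. For shTSC2-adapted versus control, 1 was called lower, 2 with dim genes left out (which removes FN1 from the test), 4 with array weights, and 0 to 1 with single arrays left out. Between the knockdown groups 1 was called higher, but 0 with quantile normalization, with only the 4 arrays compared and with the length trend removed, and 0 to 2 with single arrays left out; 1 was called lower, and 1 to 3 with single arrays left out. Where an arm kept 1 array, that array is assumed to vary like the other groups. For alternatives other than the length trend and omitted arrays or genes, the cause was not tested.

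With the replicate number as a replicate block, 10 genes were lower in shTSC2, 0 (FN1 at adjusted p = 0.0515) in shTSC2-adapted versus control, and 1 higher and 1 lower between the knockdown groups. Deviations of same-numbered arrays correlated at -0.102 (control and shTSC2), -0.187 (control and shTSC2-adapted) and 0.212 (shTSC2 and shTSC2-adapted). With 2 arrays per group, swapping the numbers only flips each sign, so these values cannot show whether the numbers mark pairs. The main test did not take them as pairs.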
